A study of Homo sapiens with 6 samples.

Results

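The human mitochondrial genome carries 37 genes, and all of them had a row in the deposited count table of 30230 genes. They were taken as every gene whose symbol starts with MT-, which gave 13 protein genes, 2 rRNA genes and 22 tRNA genes, and each matched a gene of the mitochondrial chromosome in GENCODE v44. RNA sequencing was done on A549, a human lung adenocarcinoma cell line, in 3 libraries of negative control cells (NC) and 3 libraries of cells with silenced FSCN1 (siFSCN1). FSCN1 encodes fascin, which bundles actin filaments. According to the study's methods NC cells received a scrambled siRNA and siFSCN1 cells a single siRNA sequence against FSCN1, although the treatment label of NC names a control plasmid, and effects of silencing and of that siRNA sequence cannot be told apart in this design. The methods call the libraries of each group biological replicates. Polyadenylated RNA was captured on beads, and the comparison asked which RNAs changed in level when FSCN1 was silenced.

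The mitochondrial genome is a small circle that encodes core subunits of respiratory complexes I, III and IV and of ATP synthase, the rRNAs of the mitochondrial ribosome and the tRNAs it uses. Both strands are transcribed as long precursors, which are cut mainly at the tRNAs that lie between the other genes. Most mitochondrial mRNAs then receive short poly(A) tails, which in several of them complete the stop codon. Nuclear genes supply the RNA polymerase, the processing enzymes, the stabilising proteins and the remaining subunits of the complexes.

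The 13 protein genes differ in how they end, and the last bases of 5 of them are shown because genes of both kinds moved in siFSCN1 and because the light-strand gene MT-ND6 ends differently from its neighbours. Each line gives the last 24 bases of the gene on its coding strand, 5′ to 3′, read from the GRCh38 mitochondrial chromosome at the gene ends of GENCODE v44, and capitals mark the part of the stop codon that the gene itself holds.
MT-ND1 (chrM:4239-4262, + strand): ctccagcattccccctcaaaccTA
MT-ND4 (chrM:12114-12137, + strand): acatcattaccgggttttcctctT
MT-CO2 (chrM:8246-8269, + strand): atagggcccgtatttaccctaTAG
MT-CO1 (chrM:7422-7445, + strand): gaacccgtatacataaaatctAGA
MT-ND6 (chrM:14149-14172, − strand): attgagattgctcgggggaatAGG
MT-ND1 and MT-ND4 stop short of a full codon, as do MT-ND2, MT-CO3, MT-ND3 and MT-CYB, so that 6 genes need added adenines. The other 7 hold all bases of their stop. In MT-CO1 and MT-ND6 those bases are AGA and AGG, which are annotated as stops in human mitochondria.

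FSCN1 itself, which checks the labels, was measured at 211, 219.8 and 212 CPM in NC and 18.3, 11.8 and 13.2 CPM in siFSCN1 (CPM, counts scaled to a common library size after TMM). All siFSCN1 libraries lay below all NC libraries (log2 fold change -3.89, SE 0.0937, edgeR adjusted p 8.10e-16). The libraries held between 27967301 and 36560919 counts, of which 3198078 to 5162432 came from mitochondrial genes. For the cell type markers CPM was taken on library totals, without TMM. Of the markers for the labelled cell type, all 6 epithelial genes were above 1 CPM in at least 1 library. Their summed level was 15996 to 17906 CPM in NC and 9441 to 10840 CPM in siFSCN1, and all 4 endothelial markers were under 1 CPM in every library, as were 4 of 5 fibroblast markers and 3 of the 4 leukocyte markers in the table. The sum does not give the direction of each marker, and the paper lists CDH1 as upregulated and KRT18 as downregulated after silencing. Whether the lower sum of epithelial markers has a part in the mitochondrial results was not tested.

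Mitochondrially encoded RNA took a larger share of the libraries after silencing. Of all counts in a library, the 37 genes held 11.5% ± 0.267 in NC and 15.9% ± 0.0574 in siFSCN1 (SD, n = 3 each, exact two-sided permutation p 0.1). The shares were 11.2%, 11.4% and 11.8% in the NC libraries and 15.8%, 15.9% and 15.9% in the siFSCN1 libraries, so the groups did not overlap, and the share was 1.38-fold higher in siFSCN1. With 3 libraries in each group, 0.1 is the smallest exact p that can occur. These are shares of raw counts, so they also depend on the level of the other RNAs in a library. Scaled by library totals, the median log2 fold change of all genes tested was 0.22, against 0.03 with TMM. In bulk RNA, more mitochondrial genomes or mitochondria per cell, more RNA from each and less of other abundant RNAs cannot be told apart by a share. Protein genes held 8.93% ± 0.341 in NC and 12.7% ± 0.106 in siFSCN1 (SD, n = 3 each, exact two-sided permutation p 0.1). For the rRNA genes the share was 2.54% ± 0.0806 in NC and 3.17% ± 0.162 in siFSCN1 (SD, n = 3 each, exact two-sided permutation p 0.1). With library totals the median log2 fold change of the rRNA genes was 0.26, near the 0.22 of all genes tested, and with TMM it was 0.07.

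Per gene, the rise was broad but moderate. Of the 13 protein genes 12 were higher in siFSCN1 at an edgeR adjusted p under 0.05 and 0 were lower, of the 2 rRNA genes 1 was higher, and of the 22 tRNA genes 11 were higher and 0 lower. Among all 17076 genes tested, 35.1% were called higher and 33.2% lower. The median log2 fold change was 0.38 over the protein genes, 0.07 over the rRNA genes and 0.46 over the tRNA genes, against 0.03 over all genes tested. A change of at least 2-fold was called for 1 mitochondrial gene, the sparsely counted MT-TL2, against 16.5% of all genes tested. The CPM of the groups did not overlap for 11 protein genes, 1 rRNA gene and 11 tRNA genes, against 71.3% of all genes tested. Scaling by library totals moved the median of all genes to 0.22 and that of the protein genes to 0.57. The difference between these medians was 0.35 under TMM and under library totals. A change of scaling shifts all genes by nearly the same amount, so this agreement is fixed by the method and adds no evidence. With no filter beyond 1 count the difference was 0.23, and with limma on log2(FPKM + 1) it was 0.46.

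**Figure D1:**
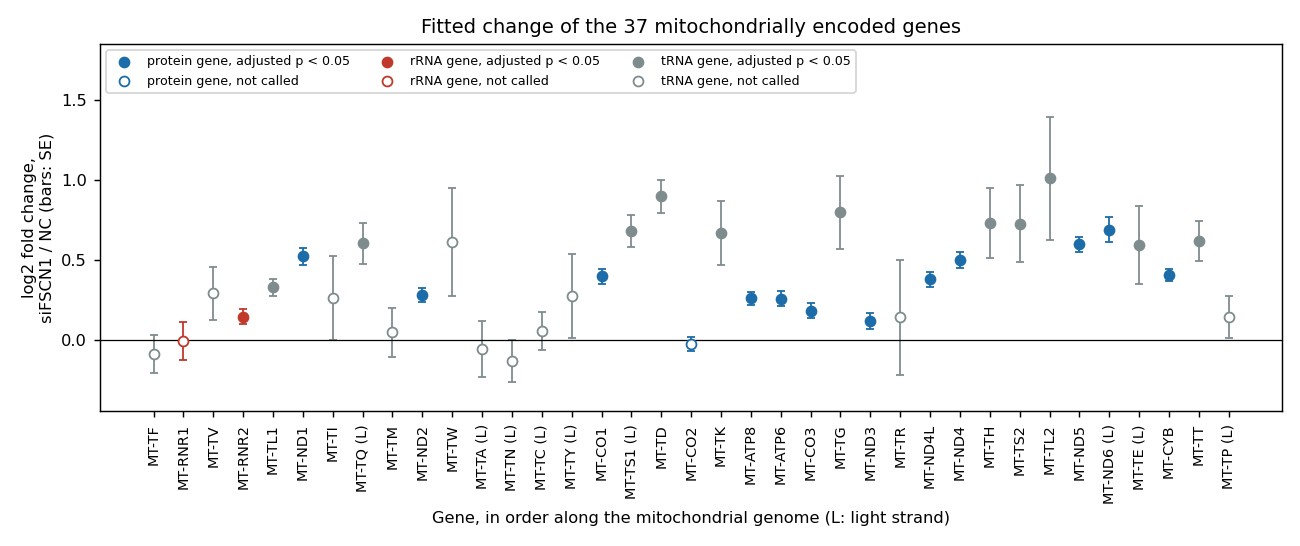
Fitted log2 fold change of each mitochondrial gene (y axis, siFSCN1 over NC, bars are SE) in the order of the genes along the genome (x axis), coloured by class, filled where the edgeR adjusted p was under 0.05, with L for light-strand genes. Protein genes lie between -0.03 and 0.69, rRNA genes between -0.01 and 0.14, and tRNA genes spread from -0.13 to 1.01 with wider errors.

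Coordinates are those of GENCODE v44 on GRCh38, on the + strand unless stated, and no mitochondrial gene has introns. The 7 mitochondrial genes of complex I, the NADH dehydrogenase that passes electrons to ubiquinone, were all called higher, against 35.1% of all genes tested. Their median log2 fold change was 0.50. MT-ND1 (ENSG00000198888.2, chrM:3307-4262) was measured at 5734, 6138 and 6638 CPM in NC and 9242, 8952 and 8383 CPM in siFSCN1. Every siFSCN1 library was above every NC library, and the gene was 43.6% higher (log2 fold change 0.52, SE 0.0527, edgeR adjusted p 7.23e-08). MT-ND2 (ENSG00000198763.3, chrM:4470-5511) was at 4869, 5154 and 5421 CPM in NC and 6403, 6307 and 6018 CPM in siFSCN1. Again the groups were apart, by a smaller 21.3% (log2 fold change 0.28, SE 0.0457, edgeR adjusted p 3.04e-05). MT-ND4 (ENSG00000198886.2, chrM:10760-12137) was at 11421, 12043 and 12809.7 CPM in NC and 17168, 17082 and 16972 CPM in siFSCN1, with siFSCN1 libraries within a narrow band above all NC libraries (log2 fold change 0.50, SE 0.0474, edgeR adjusted p 3.29e-08). MT-ND5 (ENSG00000198786.2, chrM:12337-14148), the longest of these genes, was at 2379, 2540.1 and 2491 CPM in NC and 3498, 3725 and 3985 CPM in siFSCN1. It was 51.3% higher in siFSCN1 without overlap of the groups (log2 fold change 0.60, SE 0.0469, edgeR adjusted p 2.44e-09).

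The 3 shortest complex I genes included the lowest and the highest change of that complex. MT-ND4L (ENSG00000212907.2, chrM:10470-10766) was at 872, 932 and 893 CPM in NC and 1094, 1156 and 1254 CPM in siFSCN1, higher in all siFSCN1 libraries than in any NC library (log2 fold change 0.38, SE 0.0460, edgeR adjusted p 8.49e-07). It shares 7 bases with MT-ND4, so fragments over that stretch could be counted to either, and both genes are not fully separate measurements. MT-ND3 (ENSG00000198840.2, chrM:10059-10404) was at 1510.2, 1488 and 1557 CPM in NC and 1769, 1675 and 1499.8 CPM in siFSCN1. siFSCN1 replicate 3 lay inside the NC range, and the fitted rise of 8.52% (log2 fold change 0.12, SE 0.0491, edgeR adjusted p 0.0409) passed the threshold in 9 of 16 alternative fits. With siFSCN1 replicate 1 left out its log2 fold change was 0.05 (edgeR adjusted p 0.325), and with NC replicate 1, 2 or 3 or siFSCN1 replicate 2 left out it was 0.09 to 0.13 and also missed the threshold (edgeR adjusted p 0.0627 to 0.177). MT-ND6 (ENSG00000198695.2, chrM:14149-14673, − strand), the only protein gene encoded on the light strand, was at 546, 536 and 501 CPM in NC and 694, 895 and 961 CPM in siFSCN1. The siFSCN1 libraries spread more widely than the NC libraries but all lay above them, and the fitted rise of 61.0% was the largest among the protein genes (log2 fold change 0.69, SE 0.0776, edgeR adjusted p 3.16e-07). Bead capture of poly(A) favours RNA with tails, and the tail of MT-ND6 RNA was not measured. The MT-ND6 locus lies end to end with MT-ND5 on the opposite strand. The library kits named in the labels and in the methods mark strand, but whether reads were counted by strand is not given in the sources used here, so reads of MT-ND6 and of antisense RNA from the other strand cannot be told apart.

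MT-CYB (ENSG00000198727.2, chrM:14747-15887), the cytochrome b subunit of complex III and the only mitochondrial gene of that complex, was at 4844, 4819 and 4993 CPM in NC and 6544, 6463 and 6383 CPM in siFSCN1. The spread within groups was small and the groups were apart, with 32.3% more in siFSCN1 (log2 fold change 0.40, SE 0.0395, edgeR adjusted p 4.68e-08).

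The 3 catalytic-core genes of complex IV, cytochrome c oxidase, did not move together. MT-CO1 (ENSG00000198804.2, chrM:5904-7445) was at 23180.3, 23924 and 24968 CPM in NC and 32300.0, 31638 and 30884 CPM in siFSCN1. This was 31.6% higher in siFSCN1 with no overlap (log2 fold change 0.40, SE 0.0471, edgeR adjusted p 6.27e-07). MT-CO3 (ENSG00000198938.2, chrM:9207-9990) was at 15864, 15692 and 16395 CPM in NC and 18784, 18280.1 and 17278 CPM in siFSCN1, also apart between groups but by 13.3% (log2 fold change 0.18, SE 0.0461, edgeR adjusted p 0.00209). MT-CO2 (ENSG00000198712.1, chrM:7586-8269) was at 12649, 12575 and 13195 CPM in NC and 12975, 12593 and 12095 CPM in siFSCN1. Its groups overlapped and its level did not pass the test (log2 fold change -0.03, SE 0.0445, edgeR adjusted p 0.582). The sign of the MT-CO2 value depended on scaling, at 0.16 with library totals and 0.09 with upper quartile scaling. Relative to the median of all genes, it was -0.06 with TMM, upper quartile and library-total scaling, which shift all genes nearly equally.

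The ATP synthase genes MT-ATP8 and MT-ATP6 encode membrane subunits and overlap by 46 bases. MT-ATP8 (ENSG00000228253.1, chrM:8366-8572) was at 1968, 2021 and 2069 CPM in NC and 2353, 2387 and 2501 CPM in siFSCN1, without overlap of the groups (log2 fold change 0.26, SE 0.0393, edgeR adjusted p 1.31e-05). MT-ATP6 (ENSG00000198899.2, chrM:8527-9207) was at 6494, 6738 and 7252 CPM in NC and 8348, 8092 and 8023 CPM in siFSCN1. The NC libraries varied more than the siFSCN1 libraries, and the groups were again apart (log2 fold change 0.26, SE 0.0459, edgeR adjusted p 7.80e-05). Because fragments of 1 transcript cover both genes, their near-equal changes are not separate measurements.

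**Figure D2:**
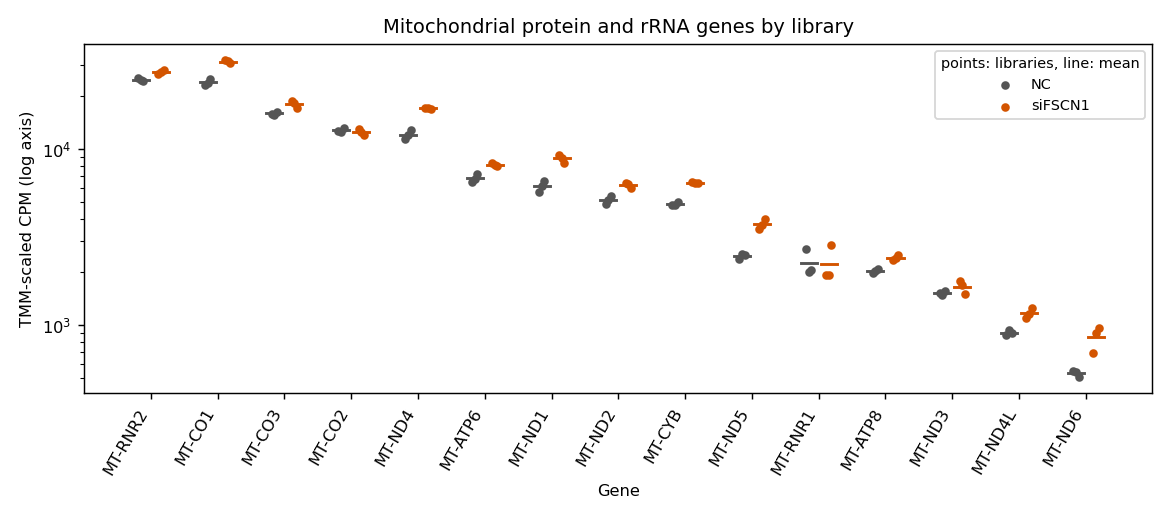
TMM-scaled CPM (y axis, log scale) of the 13 protein and 2 rRNA genes (x axis, by falling NC mean), with a point for each library and a line for each group mean. MT-CO2 and MT-RNR1 show overlapping groups at NC means of 12806 and 2247 CPM, while the siFSCN1 points of MT-CO1, MT-ND1, MT-ND4 and MT-ND5 lie above all NC points.

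Per gene length, on the deposited FPKM scale, the complex IV mRNAs were the most abundant of the protein genes. In NC the order began with MT-CO3 at 16200.5 ± 488 FPKM (SD, n = 3), MT-CO2 at 14878 ± 509 FPKM and MT-CO1 at 12382 ± 575 FPKM, with no overlap between neighbours. It ended with MT-ND5 at 1083 ± 43.5 FPKM and MT-ND6 at 799 ± 29.4 FPKM. Between them came MT-ATP6, MT-ATP8, MT-ND4, MT-ND1, MT-ND2, MT-ND3, MT-CYB and MT-ND4L, and the pairs MT-ATP6 with MT-ATP8 and MT-ND3 with MT-CYB overlapped in their ranges. In siFSCN1 the means of MT-CO1 and MT-CO2 changed places, with MT-CO1 at 18276 ± 589 FPKM and MT-CO2 at 16366 ± 722 FPKM, again without overlap. MT-ND4 moved above MT-ATP6 and MT-ATP8 by its mean, but its range overlapped that of MT-ATP6, and MT-CYB moved above MT-ND3. Across the 13 genes the log2 fold change had a Spearman correlation of -0.64 with the NC level in FPKM and of 0.45 with gene length. The correlation was 0.23 with the start position over the 12 heavy-strand genes. These correlations are across genes of the same libraries that share precursors, and they are given as a description only.

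The composition of the protein mRNAs differed between groups as well. MT-CO2 made up 13.4% ± 0.232 in NC and 10.6% ± 0.151 in siFSCN1 (SD, n = 3 each, exact two-sided permutation p 0.1) of the protein-gene counts. MT-ND4 made up 12.7% ± 0.277 in NC and 14.4% ± 0.219 in siFSCN1 (SD, n = 3 each, exact two-sided permutation p 0.1), and MT-ND1 6.46% ± 0.242 in NC and 7.45% ± 0.214 in siFSCN1 (SD, n = 3 each, exact two-sided permutation p 0.1). For both of these genes every siFSCN1 library was above every NC library, whereas for MT-CO2 every siFSCN1 library was below. MT-CO1, the largest single component, went from 25.2% ± 0.0931 to 26.6% ± 0.0638 (SD, n = 3 each, exact two-sided permutation p 0.1). MT-CO3 made up 16.8% ± 0.360 in NC and 15.2% ± 0.330 in siFSCN1 (SD, n = 3 each, exact two-sided permutation p 0.1). The share of MT-ND6 was 0.555% ± 0.0445 in NC and 0.717% ± 0.130 in siFSCN1 (SD, n = 3 each, exact two-sided permutation p 0.2), and its groups overlapped through siFSCN1 replicate 1. These shares sum to a fixed total within a library, so a rise of some forces a fall of others.

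The rRNA genes had smaller fitted changes than most of the protein genes. MT-RNR2 (ENSG00000210082.2, chrM:1671-3229), the 16S rRNA of the large subunit, was at 25511, 24746 and 24396 CPM in NC and 26834, 27484 and 28108 CPM in siFSCN1. All siFSCN1 libraries lay above the NC libraries, by 10.4% (log2 fold change 0.14, SE 0.0454, edgeR adjusted p 0.00973), and the call was lost without NC replicate 3 (0.12, edgeR adjusted p 0.0568) and without siFSCN1 replicate 2 (0.14, edgeR adjusted p 0.0591). MT-RNR1 (ENSG00000211459.2, chrM:648-1601), the 12S rRNA of the small subunit, was at 2715, 1986 and 2040.1 CPM in NC and 1911, 1927 and 2856 CPM in siFSCN1. NC replicate 1 and siFSCN1 replicate 3 stood apart from the other libraries of their groups, the groups overlapped and the gene did not pass the test (log2 fold change -0.01, SE 0.121, edgeR adjusted p 0.945). Its value was 0.14 without NC replicate 1 (edgeR adjusted p 0.314) and -0.24 without siFSCN1 replicate 3, where it was called lower (edgeR adjusted p 0.0185). The same libraries had the highest ratios of MT-RNR1 to MT-RNR2 counts, 0.106 in NC replicate 1 and 0.102 in siFSCN1 replicate 3, against 0.0701 to 0.0836 in the other 4 libraries. On the FPKM scale MT-RNR2 was at 12681 ± 177 FPKM in NC and 15709.8 ± 288 FPKM in siFSCN1, and MT-RNR1 at 1869.7 ± 322 FPKM in NC and 2085 ± 502 FPKM in siFSCN1 (SD, n = 3 each). Bead capture of poly(A) favours RNA with tails, which in mitochondria are short on rRNAs, so these are levels in captured RNA and not total rRNA.

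The tRNA genes were sparsely covered, with 3465 to 6351 summed counts per library. They are 59 to 75 bases long, shorter than the size range to which the libraries were selected, and whether the counted fragments came from mature tRNAs or from longer RNAs that cover a tRNA gene was not tested. The sequences of 4 of them are shown, MT-TS1 and MT-TD because they rose and MT-TC and MT-TN because they lie on the light strand like MT-TS1 and were not called. Each line runs 5′ to 3′ on the coding strand, and capitals mark the anticodon, located from the codon in the deposited gene description.
MT-TS1 (chrM:7446-7514, − strand): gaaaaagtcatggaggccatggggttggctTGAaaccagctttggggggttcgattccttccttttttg
MT-TD (chrM:7518-7585, + strand): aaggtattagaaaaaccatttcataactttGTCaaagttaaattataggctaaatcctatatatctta
MT-TC (chrM:5761-5826, − strand): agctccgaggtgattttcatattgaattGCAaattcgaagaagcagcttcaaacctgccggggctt
MT-TN (chrM:5657-5729, − strand): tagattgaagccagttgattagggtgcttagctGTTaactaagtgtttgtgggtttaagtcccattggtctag
MT-TS1 carries serine, MT-TD aspartate, MT-TC cysteine and MT-TN asparagine. MT-TS1 follows directly after MT-CO1 on the opposite strand, MT-TD lies 3 bases further on and directly before MT-CO2, and MT-TN and MT-TC are 31 bases apart in the light-strand tRNA cluster between MT-ND2 and MT-CO1.

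MT-TS1, the tRNA gene with the most counts, was at 24.3, 25.9 and 30.8 CPM in NC and 42.2, 51.5 and 36.6 CPM in siFSCN1. All siFSCN1 libraries were above the NC libraries, by 60.2% (log2 fold change 0.68, SE 0.0981, edgeR adjusted p 6.81e-06), but the reads cannot be told apart from RNA that reads through the end of MT-CO1 unless strand was used in counting. MT-TL1 (ENSG00000209082.1, chrM:3230-3304), a leucine tRNA at the end of the rRNA genes, was at 25.9, 27.04 and 28.8 CPM in NC and 34.2, 34.2 and 34.0 CPM in siFSCN1. The siFSCN1 libraries were almost identical and lay above all NC libraries (log2 fold change 0.33, SE 0.0524, edgeR adjusted p 2.35e-05). MT-TC was at 13.1, 13.3 and 12.4 CPM in NC and 10.7, 16.03 and 13.4 CPM in siFSCN1. Its siFSCN1 libraries lay on both sides of the NC range, and it did not pass the test (log2 fold change 0.05, SE 0.120, edgeR adjusted p 0.712). MT-TD had the lowest adjusted p of the tRNA genes, at 7.06, 6.53 and 7.68 CPM in NC and 13.1, 13.4 and 13.2 CPM in siFSCN1. Its groups were far apart relative to their spread (log2 fold change 0.90, SE 0.104, edgeR adjusted p 4.18e-07).

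The 22 tRNA genes ranged in log2 fold change from -0.13 for MT-TN (edgeR adjusted p 0.382) to 1.01 for MT-TL2 (SE 0.387, edgeR adjusted p 0.0278). MT-TL2 was the least covered, at 0.173, 0.418 and 0.321 CPM in NC and 0.523, 0.638 and 0.677 CPM in siFSCN1, and its call was lost when any of NC replicates 1 and 3 or siFSCN1 replicates 2 and 3 was left out (edgeR adjusted p 0.0577 to 0.125). The other genes called higher were MT-TG, MT-TH, MT-TS2, MT-TK, MT-TT, MT-TQ and MT-TE, between 0.59 and 0.80. The groups overlapped for MT-TS2 and MT-TE. MT-TS2 was no longer called without NC replicate 1, NC replicate 2 or siFSCN1 replicate 2 (edgeR adjusted p 0.0558 to 0.0872), and MT-TE without NC replicate 2, NC replicate 3 or siFSCN1 replicate 3 (edgeR adjusted p 0.168 to 0.222). MT-TG (edgeR adjusted p 0.0602) and MT-TH (edgeR adjusted p 0.0738) lost their calls without siFSCN1 replicate 2. Of the 14 heavy-strand tRNA genes 8 were called higher, with a median of 0.61, and of the 8 light-strand tRNA genes 3 were called higher, with a median of 0.21, against 35.1% of all genes tested called higher. The difference between strands was not tested. The light-strand cluster of MT-TA, MT-TN, MT-TC and MT-TY had log2 fold changes of -0.06, -0.13, 0.05 and 0.27, none of them called. The adjoining heavy-strand genes MT-TH, MT-TS2 and MT-TL2, which lie between MT-ND4 and MT-ND5 with no base between them, had 0.73, 0.72 and 1.01, beside 0.50 for MT-ND4 and 0.60 for MT-ND5. MT-TF, the first gene of the heavy strand, was at -0.09 (edgeR adjusted p 0.513), beside -0.01 for its neighbour MT-RNR1. Leaving out siFSCN1 replicate 2 reduced the number of tRNA genes called higher to 7 and turned MT-TN into a gene called lower (-0.32, edgeR adjusted p 0.0272). Per length, MT-TS1 was the highest at 311 ± 41.5 FPKM in NC and 561 ± 93.0 FPKM in siFSCN1 (SD, n = 3 each), which was under the lowest protein gene, MT-ND6.

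**Figure D3:**
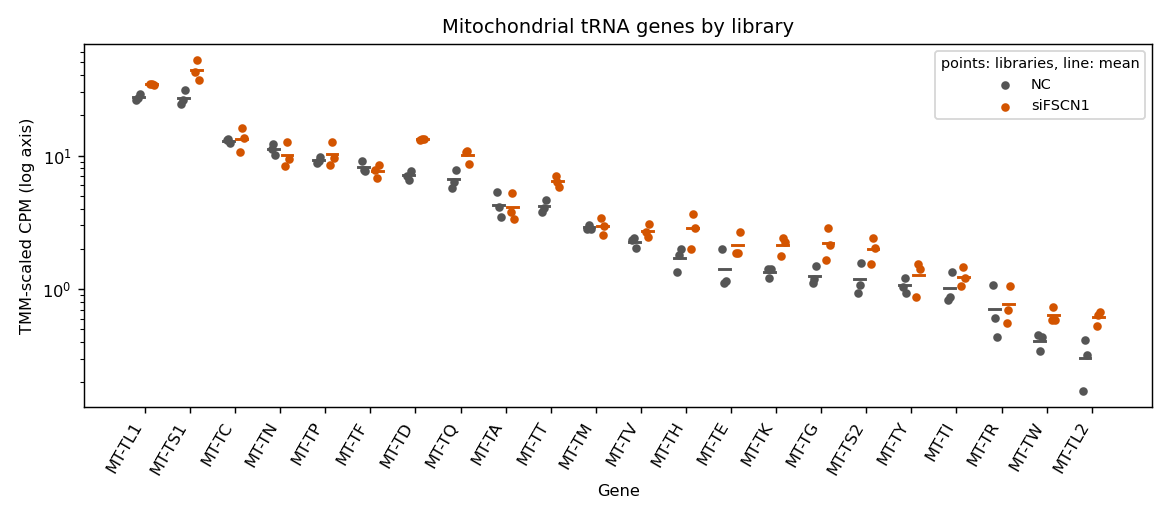
TMM-scaled CPM (y axis, log scale) of the 22 tRNA genes (x axis, by falling NC mean), with a point for each library and a line for each group mean. Levels run from 27.2 CPM for MT-TL1 in NC down to 0.304 CPM for MT-TL2, and MT-TD shows the clearest gap between groups, at 7.09 and 13.2 CPM.

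Ratios of summed counts compared the classes within each library, free of scaling between libraries. The log2 ratio of rRNA to protein-gene counts was -1.71, -1.82 and -1.91 in NC and -2.08, -2.02 and -1.91 in siFSCN1. The groups touched but did not overlap, and the siFSCN1 mean differed from the NC mean by -0.19 (exact two-sided permutation p 0.1, 0.15 after Benjamini-Hochberg adjustment). The log2 ratio of tRNA to protein-gene counts was -9.48, -9.49 and -9.48 in NC and -9.52, -9.27 and -9.45 in siFSCN1, with overlapping groups and a difference of 0.07 (exact two-sided permutation p 0.7, 0.7 after Benjamini-Hochberg adjustment). For MT-ND6 against the 12 heavy-strand protein genes it was -7.39, -7.45 and -7.62 in NC and -7.44, -7.05 and -6.91 in siFSCN1. Replicates 2 and 3 of siFSCN1 were above NC while replicate 1 was inside the NC range, and the difference was 0.36 (exact two-sided permutation p 0.2, 0.24 after Benjamini-Hochberg adjustment).

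Relative to complex I, the summed counts of the complex IV genes and of the ATP synthase genes were lower in every siFSCN1 library. The log2 ratio of complex IV to complex I counts was 0.92, 0.86 and 0.85 in NC and 0.68, 0.65 and 0.62 in siFSCN1, with all siFSCN1 libraries lower and a difference of -0.22 (exact two-sided permutation p 0.1, 0.15 after Benjamini-Hochberg adjustment). For ATP synthase to complex I it was -1.69, -1.72 and -1.70 in NC and -1.90, -1.93 and -1.89 in siFSCN1. Here the groups were tight and apart, with a difference of -0.20 (exact two-sided permutation p 0.1, 0.15 after Benjamini-Hochberg adjustment). The p-values were adjusted over the 6 ratios described so far, the share of mitochondrial counts included. By the ends of the genes, 6 of 7 protein genes with a complete stop and 6 of 6 with an incomplete stop were called higher. Among all genes tested 35.1% were called higher. The medians of these sets of protein genes were 0.38 and 0.34.

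**Figure D4:**
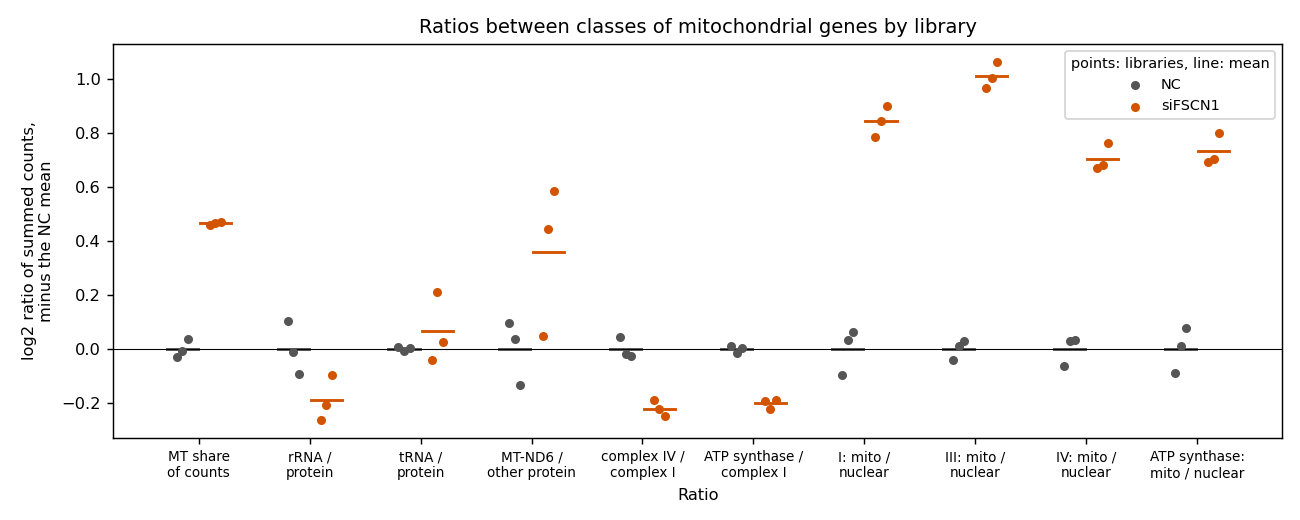
Log2 ratio of summed counts minus its NC mean (y axis) for 10 ratios (x axis), with a point for each library and a line for each group mean. The share of mitochondrial counts and the mitochondrial to nuclear ratios of 4 complexes are higher in all siFSCN1 libraries, the ratios to complex I are lower, and the tRNA and MT-ND6 ratios overlap.

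Nuclear copies of mitochondrial genes, pseudogenes that arose by transfer of mitochondrial DNA to chromosomes, can take reads from their parents. The table held 41 such copies, of which 11 were tested, 4 called higher and 0 called lower, against 35.1% of all genes tested called higher. The 3 deepest held 99.2% of their counts. MTATP6P1 (chr1:633696-634376, + strand) was 98.5% identical to MT-ATP6, with 10 mismatches and identical stretches of up to 141 bases. It was at 944, 975 and 1025 CPM in NC and 1179, 1179 and 1149 CPM in siFSCN1, higher in siFSCN1 by nearly the same amount as its parent (log2 fold change 0.25, SE 0.0387, edgeR adjusted p 1.37e-05). Its counts were 14.4% ± 0.216 in NC and 14.3% ± 0.227 in siFSCN1 (SD, n = 3 each, exact two-sided permutation p 0.9) of those of MT-ATP6. For MTND2P28 this share of MT-ND2 was 3.12% ± 0.209 in NC and 3.05% ± 0.129 in siFSCN1 (SD, n = 3 each, exact two-sided permutation p 0.6). For MTCO1P12 against MT-CO1 it was 0.274% ± 0.00753 in NC and 0.276% ± 0.0201 in siFSCN1 (SD, n = 3 each, exact two-sided permutation p 1). Between these copies and their parents the counting could split reads, so their levels and those of MT-ATP6, MT-ND2 and MT-CO1 are uncertain. The methods describe use of unique alignments only, so reads within identical stretches may have been left out, and how many was not tested. Copies of MT-ND1, MT-CO2, MT-CO3 and MT-ATP8 on chromosome 1 were 97.6% to 99.1% identical to their parents where aligned. With all copies added to the 37 genes the log2 difference in the share of counts was 0.47, as without them.

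Under TMM scaling, the nuclear genes that act on mitochondrial RNA were more often called lower than higher. Of 33 genes for transcription, processing and stability, 18 were called lower and 5 higher, with a median of -0.18, against 33.2% lower and 35.1% higher among all genes tested. The counts of the 33 genes moved with the scaling. They were 12 lower and 10 higher under library totals and 13 lower and 7 higher under upper quartile scaling. With limma on either FPKM scale they were 12 lower and 8 higher. Over all 17076 genes tested, library totals gave 3829 lower and 7970 higher, and upper quartile scaling 4514 lower and 7195 higher. Relative to the median of all genes, that of the 33 genes was -0.21 under TMM, library totals and upper quartile scaling. These scalings shift all genes nearly equally, so their agreement is fixed by the method. With limma the difference was -0.19 on log2(FPKM + 0.1) and -0.095 on log2(FPKM + 1). Of the 10 genes for transcription of the mitochondrial genome 3 were called higher and 4 lower, with a median of -0.10, and under library totals 4 were higher and 3 lower. TFAM, which packages the genome and activates its promoters, was at 71.3, 74.7 and 77.1 CPM in NC and 40.3, 40.9 and 43.5 CPM in siFSCN1. The groups were apart (log2 fold change -0.84, SE 0.0519, edgeR adjusted p 8.46e-11). POLRMT, the mitochondrial RNA polymerase, was at 76.1 ± 3.52 CPM in NC and 66.3 ± 2.39 CPM in siFSCN1 (SD, n = 3 each, log2 fold change -0.20, SE 0.0496, edgeR adjusted p 0.00167). Its call rested on the scaling, since POLRMT was at -0.0817 with upper quartile scaling (edgeR adjusted p 0.146) and at -0.0127 with library totals (edgeR adjusted p 0.833). TFB2M, which opens the promoter with the polymerase, was called lower in all fits tried (log2 fold change -0.34, SE 0.0551, edgeR adjusted p 3.04e-05). The genes called higher were MTERF2 (0.53), MTERF4 (0.19) and MTRES1 (0.57), and MRPL12, a ribosomal protein that also binds the polymerase, was called lower (-0.71). The call of MTERF4 was lost without NC replicate 1 (edgeR adjusted p 0.0795) and without siFSCN1 replicate 3 (edgeR adjusted p 0.0612). For all of these nuclear genes the changes are in mRNA, and no protein was measured.

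Of 9 tested genes for processing of mitochondrial RNA 1 was called higher and 4 lower, and of 14 for its stability and decay 1 was higher and 10 lower, with medians of -0.10 and -0.23. The shares over all genes tested were 35.1% higher and 33.2% lower. Under library totals 3 stability genes were higher and 5 lower, and 3 processing genes were higher and 4 lower. Of all 17076 genes tested, 7970 were then higher and 3829 lower. With upper quartile scaling 2 stability genes were higher and 6 lower, against 7195 and 4514 of all genes. Relative to the median of all genes, the stability median was -0.26 and the processing median -0.13 under TMM, library totals and upper quartile scaling. This agreement follows from the scalings, which shift all genes nearly equally. TBRG4, a FASTK-family protein of mitochondrial RNA processing, was at 124, 126 and 123 CPM in NC and 68.9, 63.1 and 63.2 CPM in siFSCN1. The groups were far apart (log2 fold change -0.93, SE 0.0460, edgeR adjusted p 3.79e-12), and this was the largest change among the transcription, processing and stability genes with a mean of at least 10 CPM. SLIRP, which binds mitochondrial mRNAs together with LRPPRC, was at 124, 127 and 126 CPM in NC and 77.7, 74.7 and 70.7 CPM in siFSCN1, again with no overlap (log2 fold change -0.76, SE 0.0448, edgeR adjusted p 4.44e-11). LRPPRC, which stabilises mRNAs and promotes their polyadenylation, was at 236 ± 7.65 CPM in NC and 216 ± 12.7 CPM in siFSCN1 (SD, n = 3 each), a much smaller difference (log2 fold change -0.13, SE 0.0440, edgeR adjusted p 0.0135). LRPPRC was not called with upper quartile scaling (-0.0130, edgeR adjusted p 0.81) or without NC replicate 2 (-0.12, edgeR adjusted p 0.0561) and was at 0.0566 with library totals (edgeR adjusted p 0.283), so no direction can be given for it. MTPAP, the mitochondrial poly(A) polymerase, did not pass the test, with 27.5 ± 2.26 CPM in NC and 27.2 ± 0.494 CPM in siFSCN1 (SD, n = 3 each, log2 fold change -0.01, SE 0.0579, edgeR adjusted p 0.851), and was called higher with library totals (0.17, edgeR adjusted p 0.0148).

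Among genes for replication and nucleotide supply 2 of 16 were called higher and 10 lower (median -0.23). Genes for modification of mitochondrial tRNA or rRNA gave 3 of 22 higher and 13 lower (median -0.20). Its rRNA modifiers were MRM1 and METTL15, called higher, MRM3, called lower, and NSUN4, not called. In a list of mitochondrial aminoacyl-tRNA synthetases with the amidotransferase subunits QRSL1, GATB and GATC, 2 of 21 were higher and 17 lower (median -0.40). Mitochondrial translation factors were split, with 4 of 12 higher and 5 lower (median -0.08). Under library totals 6 replication genes were higher and 7 lower, and 4 tRNA or rRNA modification genes were higher and 8 lower. In the synthetase and amidotransferase list 2 were higher and 11 lower, and 6 translation factors were higher and 4 lower. Of all 17076 genes tested, 33.2% were called lower and 35.1% higher under TMM. Under library totals 3829 of them were called lower and 7970 higher.

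Nuclear genes for the same complexes were mostly called lower, while the mitochondrial ones were mostly called higher. Of 73 tested nuclear subunit genes of complexes I, III and IV and ATP synthase, 63 were called lower and 2 higher, with a median of -0.37. Among all genes tested, 33.2% were called lower and 35.1% higher. Library totals gave 43 lower and 9 higher, against 3829 lower and 7970 higher of all 17076 genes tested. With limma on either FPKM scale 44 were lower and 4 higher. On log2(FPKM + 0.1), limma called 3919 of all 17075 genes lower and 7478 higher. Relative to the median of all genes, that of the 73 genes was -0.40 with TMM and with library totals, which shift all genes nearly equally. On the 2 FPKM scales it was -0.38 and -0.28. In complex I 29 of 36 were lower and 2 higher (median -0.35), against 7 of 7 mitochondrial genes higher (median 0.50). In complex III 9 of 9 were lower (median -0.44), in complex IV 10 of 11 (median -0.37) and in ATP synthase 15 of 17 (median -0.34). With library totals these counts of lower genes were 18, 8, 8 and 9, and in complex I 7 were then higher. The lowest values were those of ATP5F1D, a subunit of the central stalk of ATP synthase (log2 fold change -2.54, SE 0.0922, edgeR adjusted p 6.65e-14), and of NDUFC1, an accessory subunit of complex I (log2 fold change -2.40, SE 0.0695, edgeR adjusted p 4.68e-15), both named after their values were seen. Levels are relative within a library, so the mitochondrial and nuclear values are not independent.

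Within libraries, mitochondrial and nuclear counts of 4 complexes were set against each other, in ratios chosen after values had been seen and therefore given with no test. The log2 ratio of mitochondrial to nuclear counts of complex I was 2.76, 2.88 and 2.91 in NC and 3.64, 3.70 and 3.75 in siFSCN1. All siFSCN1 libraries were above NC, by 0.84. For complex III, with MT-CYB as its mitochondrial gene, the difference was 1.01, for complex IV 0.71 and for ATP synthase 0.73, each without overlap of the groups.

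**Figure D5:**
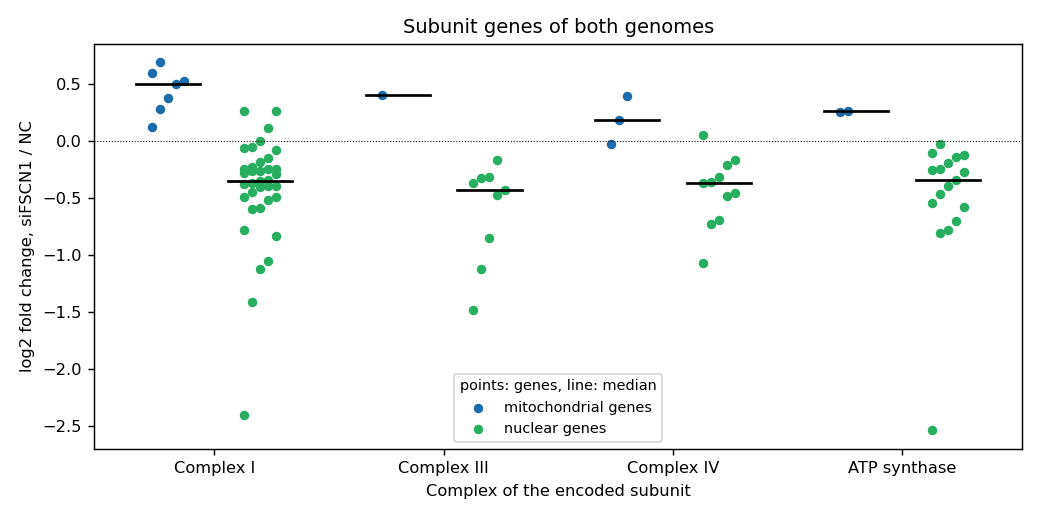
Fitted log2 fold change (y axis, siFSCN1 over NC) of the subunit genes of 4 complexes (x axis), with mitochondrial genes in blue, nuclear genes in green and a line at each median. The mitochondrial medians run from 0.18 for complex IV to 0.50 for complex I, and the nuclear medians from -0.44 to -0.34.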

How the data were processed

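The authors deposited raw counts per gene and FPKM values (fragments divided by gene length and by depth) for 6 libraries. The methods describe trimming, alignment by HISAT2 to the GRCh38 genome and use of unique alignments only, while the submitters' processing notes name TopHat2. How reads were assigned to genes, whether by strand and with which annotation, is not given in the sources used here. The deposited FPKM of mitochondrial genes used their full annotated length.

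Counts of 17076 genes that passed filterByExpr were scaled by TMM and compared with edgeR 4.0.16 (R 4.3.3, quasi-likelihood test, no covariate, Benjamini-Hochberg adjustment over all genes), which was tested on simulated data. Standard errors were derived from the F statistic. The authors used DESeq2, run here as an alternative (1.42.0) beside limma 3.58.1 on log2(FPKM + 0.1) and log2(FPKM + 1), other scalings and filters, and leaving out each library. Class ratios were tested with exact permutations of libraries.

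Values in every library are given for FSCN1, the protein and rRNA genes, the 3 tRNA genes with the most counts and the least covered tRNA gene, the deepest nuclear copy and the 3 nuclear genes of transcription, processing and stability with the largest change at a mean of at least 10 CPM (TBRG4, TFAM and SLIRP), and by means, folds or ranges otherwise. MT-TD was added after its values were seen, as were ATP5F1D, NDUFC1 and the ratios of mitochondrial to nuclear counts. The members, lists and rules were chosen with earlier results of these data known. Groups came from the sample titles. Libraries of each group differed by more than sampling noise, so none was taken for a repeat.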

Additional observations from a re-analysis of the deposited data

How the results depend on the processing

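Over 16 alternative fits, 11 to 13 protein genes were called higher and 0 lower, with 11 to 12 and 0 when a library was left out. The number of all genes called higher moved too, from 5402 of 17076 with DESeq2 to 7970 of 17076 with library totals. When a library was left out it was 5517 to 5707 of 17346 to 17582. Of 589 values of single genes under the alternatives, 523 kept their direction and their side of the threshold, 25 (8 genes) were no longer called, 10 (5 genes) became called and 31 (9 genes) changed sign. For the rRNA genes, 0 were called higher with limma on log2(FPKM + 0.1), and 0 to 1 higher and 0 to 1 lower when a library was left out. For the tRNA genes, leaving out a library gave 7 to 11 called higher and 0 to 1 called lower. Changes of at least 2-fold were called for 0 genes with RLE scaling, with no filter beyond 1 count, with the stricter filter and with DESeq2, for 2 genes with upper quartile scaling, library totals and both limma fits, and for 0 to 1 when a library was left out.

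The mitochondrial genes that changed sign had not passed the test. With upper quartile scaling MT-TA was at 0.0600, MT-CO2 at 0.0892, MT-TF at 0.0276 and MT-RNR1 at 0.11. With library totals MT-TA was at 0.13, MT-CO2 at 0.16 (called higher), MT-TF at 0.10, MT-RNR1 at 0.18 and MT-TN at 0.0541, all moved by the shift of the median of all genes. On log2(FPKM + 0.1) MT-TA was at 0.10, MT-CO2 at 0.14, MT-TF at 0.0731, MT-RNR1 at 0.14 and MT-TN at 0.0140, and the same genes on log2(FPKM + 1) were at 0.0985, 0.14, 0.0725, 0.14 and 0.0140. With the stricter filter MT-CO2 was at 0.000146 and MT-RNR1 at 0.0185. Leaving out a library turned the sign of MT-TA (-0.27 to 0.12), MT-TR (-0.17 to 0.57), MT-RNR1 (-0.24 to 0.14), MT-TM (-0.0867 to 0.14), MT-TP (-0.0438 to 0.25) and MT-TC (-0.10 to 0.18). Without siFSCN1 replicate 2 the log2 ratio of tRNA to protein counts was -0.00644, against 0.07 with all libraries. Among the nuclear genes named, LRPPRC was at 0.0566 with library totals and at 0.0331 and 0.0286 on the 2 FPKM scales. MTPAP was at 0.10 with upper quartile scaling, 0.17 with library totals, 0.0157 with the stricter filter, 0.15 and 0.11 on the FPKM scales and -0.0790 to 0.0341 when a library was left out. POLRMT and LRPPRC were called lower under TMM and RLE scaling and not under upper quartile scaling, library totals or limma. Other causes of these changes were not tested.

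The log2 difference in the share of mitochondrial counts was 0.45 to 0.51 when a library was left out. For rRNA to protein counts this range was -0.23 to -0.14, for tRNA to protein counts -0.00644 to 0.12, for MT-ND6 to the other protein genes 0.25 to 0.51, for complex IV to complex I -0.24 to -0.20 and for ATP synthase to complex I -0.21 to -0.19.

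Replicate numbers did not pair the libraries, since the deviations of same-numbered libraries correlated at -0.03, 0.04 and -0.08. With a replicate block 12 protein, 1 rRNA and 11 tRNA genes were called higher and 0 lower, against 5979 of all 17076 genes called higher. The difference in the mitochondrial share was then 0.47 (exact sign-flip permutation p 0.25, the smallest that 3 pairs allow). The number of counts limits the tRNA genes most, and shares of counts cover counting error and library variation of these 6 libraries only.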
